A study of Mus musculus with 6 samples.

Results

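The genes described here are 9 genes of primitive red blood cells, measured as a readout of the blood carried in the heads of mouse embryos at E10.5. They are the embryonic globin genes Hbb-bh1, Hbb-y and Hba-x, the heme synthesis gene Alas2, the erythroid transcription factor genes Klf1 and Gata1, and the red cell membrane genes Slc4a1, Epb42 and Rhag. A probe set was taken where the array's annotation gives it exactly 1 gene symbol and that symbol is one of the 9, whatever its brightness. Each gene had 1 such probe set, so there are 9 of the 21789 probe sets with 1 symbol, on an array of 35556 probe sets in all.

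The heads came from 6 embryos of the C57Bl6 background, all offspring of heterozygous Tasp1 parents. There were 3 labelled wild type (WT) and 3 labelled knockout (KO, Tasp1-/-), and each forebrain and midbrain part was read on 1 Affymetrix array. Tasp1 encodes Taspase1, a protease that cleaves chromatin and transcription regulators. The animals had a germline genotype, so any embryonic or yolk sac cell of a KO embryo carries it, and the labels do not say which part of the gene is deleted. Values are log2 signals, and a difference is KO minus WT on that scale, with the standard error (SE) and the p-value of a limma fit over all 21789 probe sets.

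Primitive red cells arise in the yolk sac blood islands and enter the embryo's circulation while still nucleated. They make embryonic hemoglobins, in which the zeta-type chain from Hba-x and the alpha chains from Hba-a1 and Hba-a2 pair with beta-type chains from Hbb-y and Hbb-bh1. GATA1 and KLF1 bind GATA and CACCC motifs and switch on globin, heme and membrane genes in these cells. The forebrain and midbrain are not known as a site where they arise, and their RNA enters the sample with the blood in the vessels. In a whole piece of tissue, fewer red cells and less RNA in each red cell cannot be told apart.

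The promoter stretches below are shown because GATA1 and KLF1 are themselves among the 9 genes and because globin genes of both embryonic and adult type are described below. RefSeq promoters (build GRCm38.p6) were found for 7 of the 9 genes, and not for Hbb-bh1 and Slc4a1. Those of Gata1, Epb42 and Rhag were searched but are not printed. Each line gives the 150 bases before the start of transcription, 5′ to 3′ on the gene's strand, and capitals mark a word of 1 of 4 motifs on either strand: GATA with A or T before it and A or G after it, the KLF-type word CACCC, the upstream box CCAAT, and the word TATAA of TATA boxes.
Hbb-y (chr7:103853208-103853357, minus strand): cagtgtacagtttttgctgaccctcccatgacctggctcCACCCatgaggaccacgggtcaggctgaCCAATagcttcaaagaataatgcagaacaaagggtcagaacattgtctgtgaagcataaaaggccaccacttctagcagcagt
Hba-x (chr11:32276450-32276599, plus strand): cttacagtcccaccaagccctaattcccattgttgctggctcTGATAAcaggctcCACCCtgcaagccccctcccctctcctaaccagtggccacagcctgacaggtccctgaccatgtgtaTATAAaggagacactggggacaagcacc
Alas2 (chrX:150547267-150547416, plus strand): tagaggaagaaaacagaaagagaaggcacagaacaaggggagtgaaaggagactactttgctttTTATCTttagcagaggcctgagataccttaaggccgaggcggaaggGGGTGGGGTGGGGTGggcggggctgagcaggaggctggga
Klf1 (chr8:84901832-84901981, plus strand): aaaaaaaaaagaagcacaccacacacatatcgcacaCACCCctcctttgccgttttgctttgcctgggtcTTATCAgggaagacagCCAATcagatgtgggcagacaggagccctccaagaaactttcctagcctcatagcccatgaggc
Hbb-bs (chr7:103827929-103828078, minus strand): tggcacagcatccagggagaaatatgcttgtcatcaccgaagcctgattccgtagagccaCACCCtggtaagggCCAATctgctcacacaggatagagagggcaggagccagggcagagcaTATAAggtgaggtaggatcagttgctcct
Hbb-bt (chr7:103813924-103814073, minus strand): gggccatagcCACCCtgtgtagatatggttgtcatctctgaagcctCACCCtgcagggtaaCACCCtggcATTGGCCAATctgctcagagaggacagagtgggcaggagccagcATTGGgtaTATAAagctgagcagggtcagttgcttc
Over the 250 bases before the start, a GATA word stood in 6 of the 7 promoters of these genes and in 26.5% of all 32851 promoters in the table. CACCC stood in 6 of 7, against 52.0% of all promoters. The promoter without a GATA word was that of Gata1, and the promoter without CACCC was that of Epb42. CCAAT stood in 3 of 7 (33.8% of all) and TATAA in 3 of 7 (22.8% of all). In 1 case words of different motifs overlapped, in the Rhag promoter. In the Hbb-y stretch CACCC begins 111 bases and CCAAT 83 bases before the start, and in the Hba-x stretch a GATA word begins at 108 and CACCC at 95. A match describes letters and is not a bound site.

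None of the 9 genes passed the threshold of an adjusted p of 0.05 in limma, and over all probe sets tested the share that passed was 0%. At an unadjusted p under 0.05, 1 of the 9 was lower in KO heads, Hbb-bh1, where 3.89% of all probe sets were lower and 2.32% higher at that p (6.21% together). The 9 differences had a median of −0.067, with 8 below 0 and 1 above, beside a median of −0.012 over all probe sets, of which 56.3% lay below 0. The groups did not overlap for 1 gene, again Hbb-bh1 (11.1% of the 9), where 6.76% of all probe sets had every KO head below every WT head. By their mean over the 6 heads, all 9 lay above the signal of 7.06 under which the dimmest 40% of probe sets fell. Gata1 was close to that signal and read below it, at 6.98, in KO 2 and in KO 3.

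Hbb-bh1, a beta-type globin gene of primitive red cells on chromosome 7, read 12.80, 12.78 and 12.64 in WT heads 1 to 3 and 12.57, 12.44 and 12.56 in KO heads 1 to 3. Every KO head lay below every WT head, and KO 2 was lowest. WT heads averaged 12.74 ± 0.09 and KO heads 12.53 ± 0.08 (SD, n = 3 each), which is a ratio of 0.863 and a difference of −0.21 (SE 0.052, 95% confidence interval −0.33 to −0.10). The unadjusted p of limma was 0.0021, from a spread estimate that also draws on other probe sets of like signal. Without that use of signal the limma p was 0.013. The difference did not pass adjustment over all probe sets (limma, adjusted p = 0.42). A two-sided exact permutation test over the heads gave p = 0.1, which is the lowest value possible with 3 heads a group. Leaving out each head in turn, the difference ran from −0.26 to −0.17.

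Hbb-y, the other embryonic beta-type globin gene of the same cluster, read 13.39, 13.38 and 13.33 in WT heads and 13.34, 13.33 and 13.42 in KO heads. The ranges overlapped, though KO 3 lay above every WT head, and the highest and the second lowest head were both KO heads. The difference was −0.0005 (95% confidence interval −0.080 to 0.079; limma, adjusted p = 0.999). Hba-x, the embryonic alpha-type gene on chromosome 11, read 12.98, 13.05 and 12.91 in WT heads and 12.95, 12.90 and 13.02 in KO heads. These also overlapped, with a difference of −0.022 (95% confidence interval −0.12 to 0.076; limma, adjusted p = 0.96). The intervals leave room for a change of at most 0.12 in Hba-x and 0.080 in Hbb-y at this confidence. The sign of both differences turned with the head left out: without WT 2 Hba-x differed by 0.012 and Hbb-y by 0.0055.

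All 3 embryonic globin signals were among the brightest of the array. Hbb-y was brighter than 99.7% of the probe sets, Hba-x than 99.3% and Hbb-bh1 than 98.8%, and the brightest mean of any probe set was 14.3. How far such signals still rise in proportion to RNA was not tested.

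**Figure D1:**
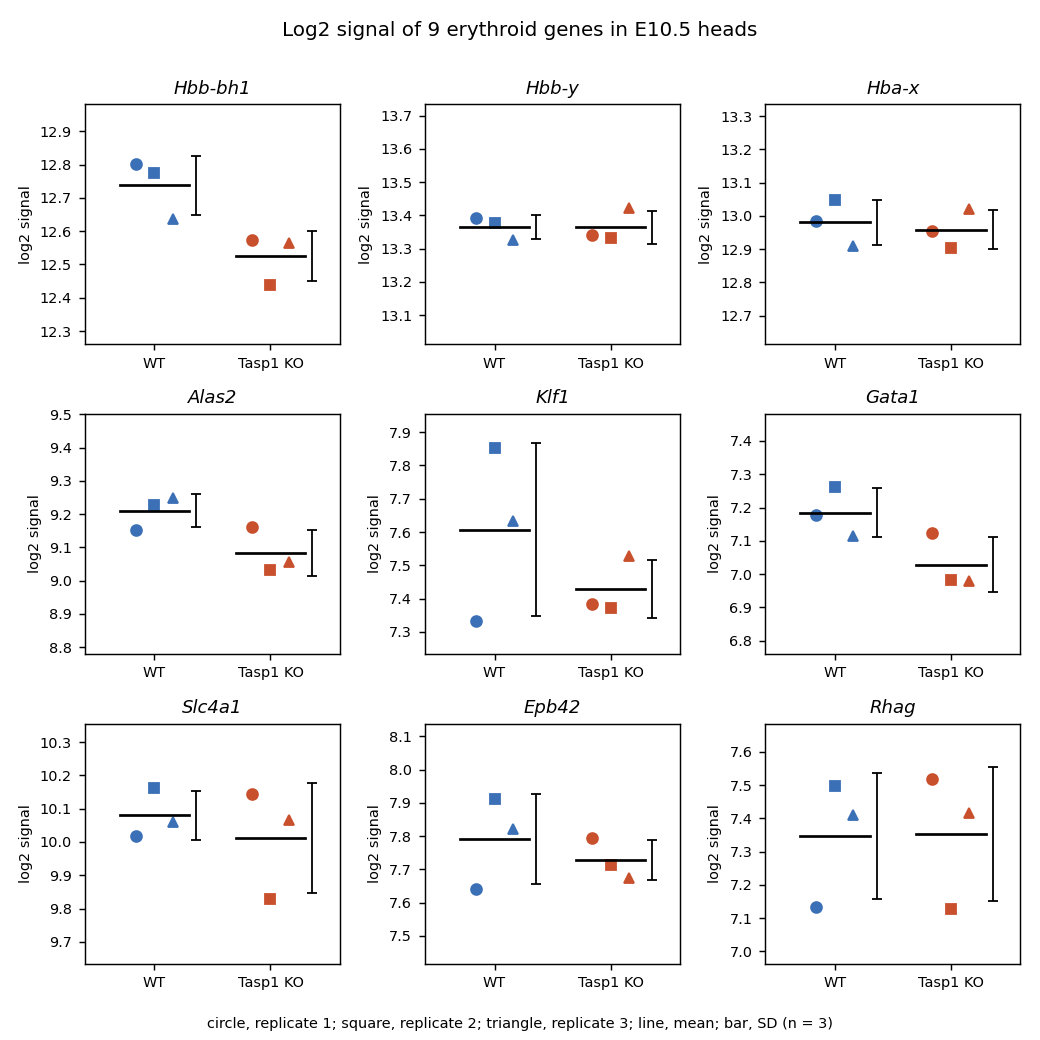
Log2 signal (y axis, the same span in every panel) of the 9 genes in 3 WT and 3 Tasp1 KO heads; symbols are single heads, lines are means and bars are SD. Hbb-bh1 is the gene whose groups do not overlap, with means of 12.74 and 12.53.

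Adult-type beta globin genes gave a larger difference than any of the 9, and adult-type alpha genes a smaller one than Hbb-bh1. These probe sets carry several symbols and lie outside the fit above, because near-identical gene copies share their probes. The 2 probe sets annotated to Hbb-bt, Hbb-bs, Hbb-b2 and Hbb-b1, the adult-type beta genes, had a mean of 10.70, 10.85 and 10.49 in WT heads and 10.40, 10.02 and 9.97 in KO heads. Every KO head was below every WT head, with KO 1 closest to the WT range. WT heads averaged 10.68 ± 0.18 and KO heads 10.13 ± 0.24 (SD, n = 3 each), which is a ratio of 0.681 (two-sided exact permutation p = 0.1). In the limma fit over all 35556 probe sets the differences were −0.66 (SE 0.16) and −0.45 (SE 0.11), and neither passed adjustment (adjusted p = 0.74 and 0.79).

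The 2 probe sets of the alpha genes Hba-a1 and Hba-a2 had a mean of 13.09, 13.07 and 13.04 in WT heads and 12.97, 12.76 and 13.02 in KO heads. The groups again did not overlap, although KO 3 lay only just under WT 3. The difference was −0.15 with KO 2 and −0.073 without it (limma over all probe sets, adjusted p = 0.86 for each of the 2). The minor globin genes Hbq1b, Hbq1a and Hbb-bh2 were dim, with means from 5.02 to 7.07 and differences of 0.12, −0.020 and 0.14 (limma, adjusted p = 0.87, 0.98 and 0.88).

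The differences of the globin genes were compared with each other within each head, over 6 pairs chosen after the values were seen. The change of Hbb-bh1 was 0.21 below that of Hbb-y in the KO heads (change of Hbb-bh1 minus change of Hbb-y, −0.21; SD of the within-head difference 0.053 in WT and 0.066 in KO heads). It was −0.19 against Hba-x. The adult-type beta signal changed by −0.55 relative to Hbb-y and by −0.34 relative to Hbb-bh1, and the Hba-a signal by −0.13 relative to Hba-x. In these 5 pairs every KO head lay below every WT head (exact permutation tests, two-sided p = 0.1 each, adjusted p = 0.12 over the 6 pairs). The remaining pair, Hba-x against Hbb-y, overlapped, with a change of −0.021 (exact p = 0.7). With 3 heads a group none of these could pass 0.05. The pairs share genes, so the 5 are not separate results. As the pairs were chosen by their values, the p-values only describe the order of the heads. Paralogous globin probe sets may also share probe sequence in part, which was not tested. The paired signals also differ in brightness, with a WT mean of 10.68 for adult-type beta and 13.37 for Hbb-y. Whether signals so far apart follow RNA in the same proportion was not tested, so unequal log2 changes need not be unequal RNA changes.

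**Figure D2:**
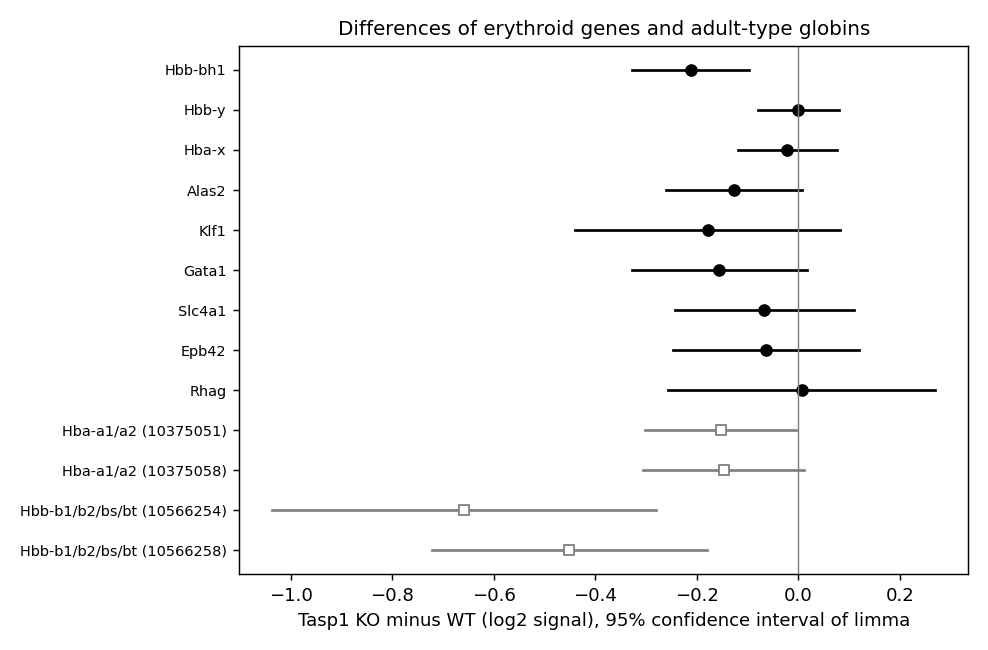
Tasp1 KO minus WT difference in log2 signal (x axis) with its 95% confidence interval from limma. Filled points are the 9 genes, and open squares are the 4 adult-type globin probe sets with several symbols, fitted over all probe sets; the adult-type beta probe sets lie farthest left, at −0.66 and −0.45.

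Alas2, on the X chromosome, encodes the erythroid enzyme of the first step of heme synthesis. It read 9.15, 9.23 and 9.25 in WT heads and 9.16, 9.03 and 9.06 in KO heads. KO 2 and KO 3 lay below all WT heads, and KO 1 lay among them. The difference was −0.13 (SE 0.060, 95% confidence interval −0.26 to 0.0070; limma, unadjusted p = 0.061, adjusted p = 0.83).

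The regulator Gata1, also X-linked, read 7.18, 7.26 and 7.11 in WT heads and 7.12, 6.98 and 6.98 in KO heads, a difference of −0.16 (95% confidence interval −0.33 to 0.017; limma, adjusted p = 0.83). Only KO 1 overlapped the WT range. Klf1 read 7.33, 7.85 and 7.63 in WT heads and 7.38, 7.37 and 7.53 in KO heads. Its WT heads were spread over 0.52, more than any other of the 9 genes over all heads, with WT 1 lowest of all 6. Its difference was −0.18 (95% confidence interval −0.44 to 0.082; limma, adjusted p = 0.88), and it ran from −0.32 without WT 1 to −0.055 without WT 2.

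Slc4a1, which encodes the anion exchanger band 3 of the red cell membrane, read 10.02, 10.16 and 10.06 in WT heads and 10.15, 9.83 and 10.07 in KO heads. KO 2 alone was low, and the difference of −0.067 (limma, adjusted p = 0.92) turned to 0.026 without it. Epb42, the gene of the membrane skeleton protein 4.2, read 7.64, 7.91 and 7.82 against 7.80, 7.71 and 7.68, a difference of −0.063 (limma, adjusted p = 0.93). It lies on chromosome 2, as Tasp1 does. Rhag, the Rh-associated glycoprotein gene, read 7.13, 7.50 and 7.41 against 7.52, 7.13 and 7.41, a difference of 0.0062 (limma, adjusted p = 0.996) that ran from −0.10 without WT 1 to 0.12 without KO 2.

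Read by head, the 9 genes set WT 2 and KO 2 apart. WT 2 had the highest signal in 5 of the 9 genes and stood among the top 2 heads in 8, while KO 2 was lowest in 5 and among the bottom 2 in 8. Averaged over the 9 genes, each centred on its mean over all heads, the level was −0.028, 0.14 and 0.029 in WT heads 1 to 3 and 0.011, −0.13 and −0.019 in KO heads 1 to 3. The groups overlapped, with means of 0.046 ± 0.083 and −0.046 ± 0.074 (SD, n = 3 each), so the difference of −0.091 was close to the spread within a group, and it was −0.046 without WT 2 and −0.049 without KO 2. WT 1 was split: its level was 0.071 over the 3 embryonic globins and −0.078 over the other 6 genes. In KO 2 both were low, at −0.097 and −0.15. The split of WT 1 did not hold for each gene. Hbb-bh1 was highest in WT 1 and Klf1 and Epb42 were lowest there, but Gata1 read 7.18 in WT 1, above every head but WT 2.

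The median of the 9 differences depended on single heads. It was −0.026 without WT 2 and −0.056 without KO 2, and −0.14 without WT 1 and −0.13 without KO 1. WT 2 was also the head with the pattern of a female, with an Xist signal of 12.3 against 4.90 to 5.24 elsewhere and an Eif2s3y signal of 4.52 against 9.44 or more. Of the 9 genes, 2 are X-linked; over the 7 autosomal genes the level in WT 2 was still the highest, at 0.14, and the difference between groups was −0.077. WT 1 lay apart on the first principal component over all probe sets, at −16.9 where the others lay between −5.15 and 10.1. The part of sex or of that component in these values was not tested.

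**Figure D3:**
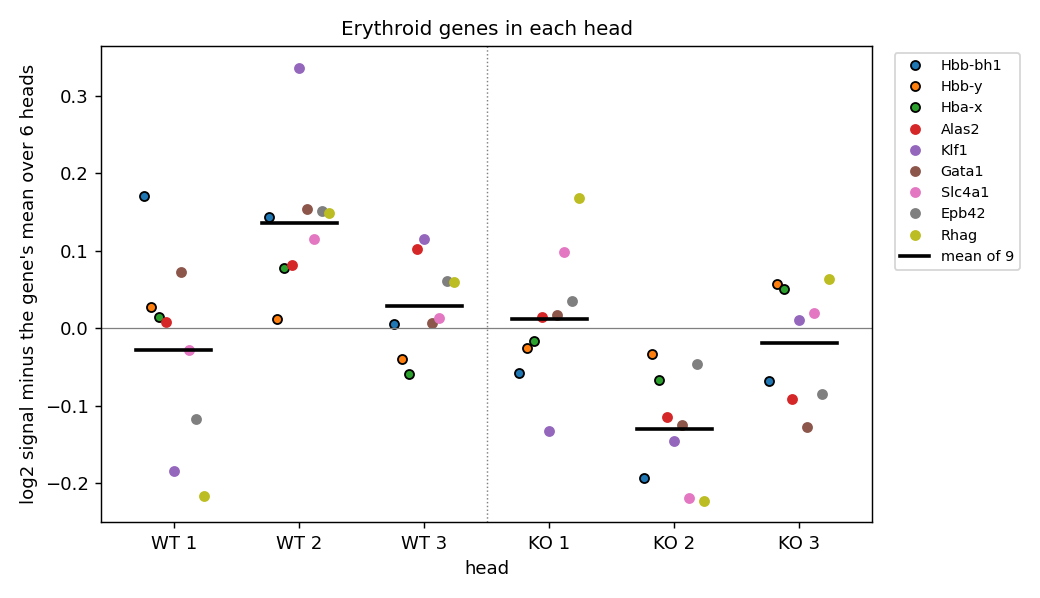
Log2 signal minus each gene's mean over 6 heads (y axis) for the 9 genes (points; black edges mark the embryonic globins) in each head (x axis), with the mean of the 9 as a line. WT 2 has the highest mean, 0.14, and KO 2 the lowest, −0.13, and in WT 1 the globins lie above the mean of 9 while Klf1 and Rhag lie below it.

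Other genes of red cells were read from lists that were drawn up with earlier results of these data known. None of their members passed the threshold in limma. Among genes of red cell enzymes and maturation (14 probe sets of 12 genes), the median difference was −0.049, 13 of 14 were lower and 4 had an unadjusted p under 0.05, all lower (28.6%, beside 3.89% of all probe sets). The median was −0.091 without KO 2, −0.086 without WT 3 and −0.096 with the dimmest 40% of probe sets left out. The 4 at that unadjusted p were Cat, the peroxide-degrading catalase (−0.23, adjusted p = 0.37), Car2, a carbonic anhydrase (−0.26, 0.43), Fam210b, a mitochondrial gene (−0.29, 0.70), and the biliverdin reductase Blvrb (−0.23, 0.70), with adjusted p from limma. For each of them every KO head lay below every WT head, as for 6.76% of all probe sets. Picking genes by a small p favours such separation, so it adds no further evidence. Cat and Fam210b lie on chromosome 2, and all 4 are also used outside red cells.

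Genes of heme synthesis and iron supply (14 probe sets) had a median of −0.018, with 9 lower and 5 higher. Slc25a37, the mitochondrial iron importer of red cell precursors, read 10.01, 10.15 and 10.18 in WT heads and 9.97, 9.90 and 9.85 in KO heads, a difference of −0.20 (limma, adjusted p = 0.64). Tfrc, the transferrin receptor of dividing cells and erythroid precursors, lay the other way, at 10.20, 10.14 and 10.23 in WT and 10.28, 10.34 and 10.38 in KO heads (0.14, limma, adjusted p = 0.75). Neither gene's groups overlapped, where 6.76% of all probe sets were separated with KO lower and 4.15% with KO higher. Urod and Steap3 differed by −0.10 and −0.12 and their groups overlapped.

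Erythroid regulators (15 probe sets of 14 genes) had a median of −0.065, with 13 lower, 2 higher and none at an unadjusted p under 0.05; without KO 2 the median was −0.0017. Bcl11a, a repressor of embryonic globin genes that neurons also use, differed by −0.26, Gfi1b by −0.13, Sox6 by −0.10 and Lmo2 by −0.073 (limma, adjusted p from 0.85 to 0.89). For Gfi1b, Sox6 and Lmo2 every KO head lay below every WT head (3 of 15 probe sets, beside 6.76% of all probe sets). Gfi1b and Lmo2 lie on chromosome 2, as Tasp1 does. Genes of the red cell membrane and blood groups (13 probe sets of 12 genes) had a median of −0.0016, 7 lower and 6 higher, and Rhd, which encodes an Rh antigen, stood highest at 0.18 (limma, adjusted p = 0.84). Icam4, Ermap and Kel differed by −0.067, −0.077 and 0.042.

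**Figure D4:**
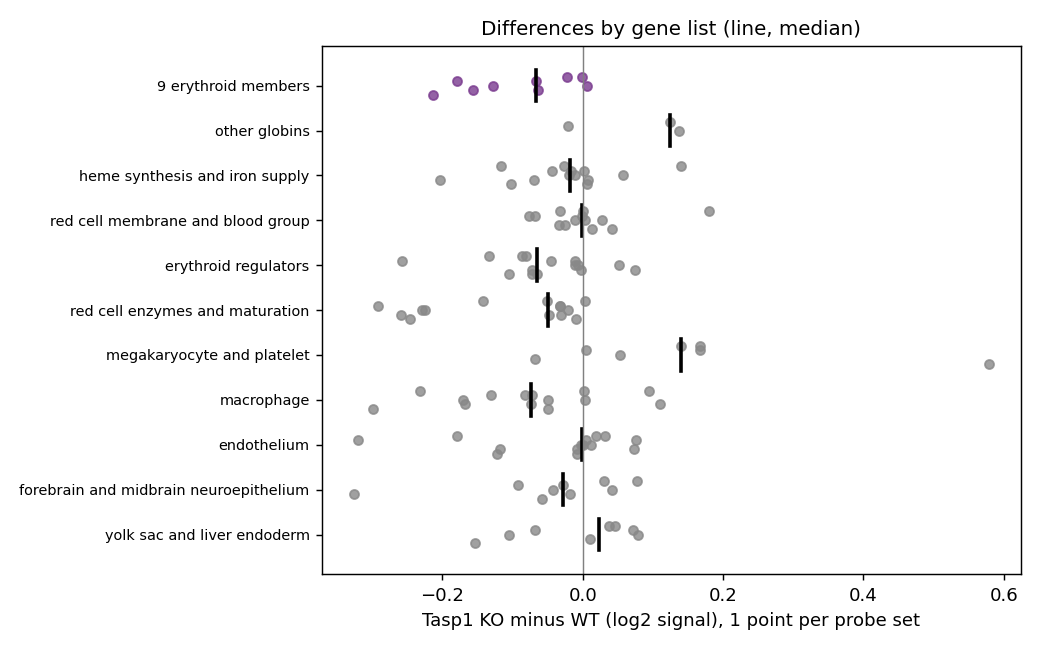
Tasp1 KO minus WT difference in log2 signal (x axis) of every probe set with 1 symbol in each gene list (rows), with the list's median as a line. The 9 genes have a median of −0.067; the point at the far right is Ppbp, at 0.58.

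Markers of other cells in the dissected piece were read beside these values, and their part in the erythroid values was not tested. Macrophage genes (14 probe sets, 10 lower, median −0.073) had a level between 0.017 and 0.078 in WT heads and between −0.13 and 0.015 in KO heads, with KO 2 lowest. Their median was −0.023 without KO 2, where C1qc differed by −0.11. With all heads C1qb differed by −0.30, Spi1, which is also a blood progenitor regulator, by −0.17, C1qc by −0.23 and Cx3cr1 by 0.11 (limma, adjusted p from 0.45 to 0.87). Spi1 lies on chromosome 2. Platelet lineage genes (7 probe sets, 6 higher, median 0.14) lay between −0.12 and 0.0072 in WT and between −0.079 and 0.24 in KO heads. Ppbp, a platelet chemokine gene, read 8.65, 8.31 and 8.36 in WT and 9.47, 8.64 and 8.95 in KO heads (0.58, SE 0.17; limma, unadjusted p = 0.0069, adjusted p = 0.64), where KO 2 overlapped WT 1. Itga2b, Plek and Pf4 differed by 0.17, 0.14 and 0.17. KO 1 was the head with the highest level of these genes: without it the list's median was 0.031, Ppbp differed by 0.35 and Pf4 by −0.020. The median was also lower without WT 2 (0.054) and WT 3 (0.089).

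Endothelial genes (14 probe sets, 7 lower and 7 higher, median −0.00094), which mark the vessels that hold the blood, lay between −0.034 and 0.072 in WT heads and between −0.024 and −0.012 in KO heads. Among them Ramp2, a receptor partner in vessels, differed by −0.32 (limma, adjusted p = 0.30), Sox17 by −0.18, Esam by −0.12 and Erg by −0.12. Forebrain and midbrain neuroepithelium, the labelled tissue, was present, with 9 of 9 probe sets above the signal of 7.06 and a median of −0.028. Lhx2 differed by −0.33 (limma, adjusted p = 0.30), Fabp7 by −0.093, En1 by 0.077 and Pax6 by −0.057. Lhx2 and Pax6 lie on chromosome 2. Yolk sac and liver endoderm genes (8 probe sets, 2 above 7.06, median 0.024) were mostly dim, and Rbp4, Amn, Apob and Afp differed by −0.15, −0.11, −0.068 and 0.072. The Tasp1 probe set read 8.10, 8.45 and 8.49 in WT and 8.63, 8.63 and 8.50 in KO heads. Every KO head lay above every WT head, as for 4.15% of all probe sets. The lowest KO head, at 8.50, was only just above the highest WT head, at 8.49. The difference was 0.24 (SE 0.10, limma, unadjusted p = 0.033) and did not pass adjustment (limma, adjusted p = 0.79). The Tasp1 signal was thus not lower in the KO heads. Since the place of this probe set relative to the deleted part is unknown here, it does not check the labels.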

How the data were processed

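The deposited table holds log2 signals, 1 per probe set and array; that scale was read from the values, which were used as deposited. Array medians ran from 7.35 (WT 1) to 7.45 (KO 1), a gap wider than the median of the 9 differences, and the array maximum was 13.9 in KO 1 and 14.4 in the others; with median centring the median of the 9 differences was −0.094 in place of −0.067. Affymetrix Expression Console and MAS5 are named in the submitters' processing notes, with no version; background correction, scaling and summarisation are not given in the sources used here. Probe sets were named from the platform annotation; 1621 with several symbols and 12146 unnamed were left out of the main fit. KO and WT heads were compared with limma 3.58.1 (R 4.3.3), by lmFit and eBayes (trend on), two-sided, and p-values were adjusted by Benjamini-Hochberg over 21789 probe sets with no brightness filter. The number of arrays limits the precision. The procedure was tested on simulated data, but its recovery of changes as small as those described here is not reported.

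The members and gene lists were chosen with earlier results of these data known, so no list was tested. All 9 members are given, and from each other list the up to 4 genes with the smallest unadjusted p. Levels per head are means of centred log2 signals. Alternatives covered normalization (quantile, median centring), an added 1 or 64 on the linear scale, a 40% brightness filter, 1 probe set per gene, all probe sets, other variance models, array weights, a replicate block, no sex chromosomes, and each head left out. Figures were drawn with matplotlib 3.10.9.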

Additional observations from a re-analysis of the deposited data

How the results depend on the processing

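Under all 18 alternatives 0 of the 9 genes passed an adjusted p of 0.05 in limma; the one without sex chromosomes leaves out Alas2 and Gata1. The count over all probe sets was 0 (1354 at an unadjusted p under 0.05). It became 2 with 1 probe set per gene (Caprin2 and Mir9-1), 9 with all probe sets (all of 1 repeated gene family) and 1 with array weights (Caprin2), and ran from 0 to 8 with each head left out: 8 without KO 1 and 1 without WT 1 (Sst). The cause was not tested. The replicate numbers do not pair the heads: same-numbered heads' deviations correlated at −0.14, −0.14 and −0.29, and with the replicate number as a block 0 probe sets passed, 1015 at an unadjusted p under 0.05. Hbb-bh1 was below 0 in all 18 alternatives, with adjusted p from 0.25 to 0.99988. Signs turned in 5 alternatives for Hbb-y, 3 for Hba-x, 1 for Slc4a1 and 6 for Rhag, none of them called. The number of the 9 with an unadjusted p under 0.05 ran from 1 to 3, the others being Alas2, Gata1 or Klf1. The adult-type beta difference ran from −0.69 to −0.47. Restricting the red cell enzyme list to 1 probe set per gene moved its median from −0.049 to −0.096. The list medians of red cell membrane, endothelial, neuroepithelial and endoderm genes changed sign with a head left out, and then lay between −0.055 and 0.049.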

Other observations

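The genes whose profile over the 6 heads lay closest to the mean profile of the 3 embryonic globins were Lrrc75b, a leucine-rich repeat gene, Hdac11, a histone deacetylase gene, Ssc4d, a scavenger receptor family gene, Ptpn6, a tyrosine phosphatase gene of blood cells, and Rph3al, a gene of exocytosis. Likeness was the root mean square distance between centred log2 profiles, over 13064 probe sets above the 40% brightness filter that are not among the 9 genes. Lrrc75b, at a distance of 0.015, read 7.32, 7.31 and 7.20 in WT heads and 7.19, 7.14 and 7.28 in KO heads. Hdac11 lay at 0.016, Ssc4d at 0.017, Ptpn6 at 0.018 and Rph3al at 0.019. A flat profile lies at 0.062, so the globin profile is shallow, and 12.6% of these probe sets lay closer than that. Probe sets that vary little also lie close to a shallow profile. What share would lie closer by chance was not tested. Among the other erythroid genes Gata1 lay at 0.071, Alas2 at 0.076, Slc4a1 at 0.087, Epb42 at 0.10, Rhag at 0.16 and Klf1 at 0.17, all farther than a flat profile. Of the 3 globins that make up the mean profile, Hba-x lay at 0.033 and Hbb-y at 0.045, but Hbb-bh1 at 0.073, also farther than a flat profile. This distance counts the size of a change as well as its shape. Hbb-bh1 differed by −0.21 between the groups and the mean profile by −0.078, so its distance does not show a different shape.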
